A study of Caenorhabditis elegans with 14 samples.

Results

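The fatty acid activation and beta-oxidation genes were taken from the table by symbol: every name starting with acs-, acdh-, acox-, ech-, cpt-, hacd- or maoc-, together with *kat-1*, *dhs-28* and *daf-22*. This found 55 of the 41560 gene symbols, of which 47 averaged 1 FPKM or more across the 7 libraries, as 13745 genes did in all. The 47 members were 16 acs genes for activation, 20 genes of the mitochondrial steps, 6 of the peroxisomal steps and 5 other hydratases. The 8 members below this level (*acdh-5*, *acdh-6*, *acdh-8*, *acs-6*, *acs-9*, *acs-10*, *acs-15* and *acs-18*) were not tested. No measured difference entered the rule.

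Messenger RNA came from whole *C. elegans* hermaphrodites grown at 23.5 °C. Both strains carry *spe-9(hc88)*, a temperature-sensitive mutation that leaves the animals sterile because their sperm do not fertilize at this temperature, so all libraries, the controls included, are from sterile animals that still have a germ line. The double mutant *mir-60;spe-9* also carries the deletion *mir-60(n4947)*, which removes a microRNA known from the intestine, and *spe-9* alone is its control. The level of *mir-60* itself was not analysed here. Day 0 is the young adult before any treatment (2 libraries of each strain). The later animals had been kept from Day 0 on 5 mM paraquat, a herbicide that generates superoxide, with 325 µM FUDR, which blocks DNA synthesis. They were collected at Day 7 (1 library of each strain), the median survival time of *spe-9*, and at Day 10 (1 library of *mir-60;spe-9*), that of the double mutant. Age, paraquat and FUDR therefore changed together and cannot be told apart, and the later animals are those that had survived.

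Each library was sequenced in 2 runs, merged in the deposited values. These are FPKM, fragments mapped to a transcript scaled by its length and by library size, summed here over the transcripts of a gene. Low FPKM values fell on steps of whole reads, from which the depth was estimated at 48550000 to 61050000 reads per library. Behind a member in its weakest library stood an estimated 10 reads for *ech-9*, 39 for *cpt-3* and 45 for *acdh-4*, and 78 or more for each of the others. In *mir-60;spe-9* at Day 7, 215 genes read exactly 0 although the remaining libraries were at 10 FPKM or more, and 67 did so in the double mutant at Day 10. Such zeros were treated as missing, which touched 1 member, *ech-3*. Differences are on the scale log2(FPKM + 0.5) and were fitted by limma over all 13745 genes, with Benjamini-Hochberg adjustment over all of them. The study calls the Day 0 replicates biological and takes them from independent sample preparations, and p-values at Day 0 measure the spread between these libraries. No later condition has a replicate. In the fits that include the later libraries, the spread therefore also holds any difference between Day 7 and Day 10. In the fit of stage with strain as a term, it holds any strain-by-stage difference too.

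Beta-oxidation shortens fatty acids from the carboxyl end. An acyl-CoA synthetase (acs) first joins the acid to coenzyme A, and carnitine palmitoyl transferases (cpt) then pass long chains into mitochondria, where acyl-CoA dehydrogenases (acdh), enoyl-CoA hydratases (ech), a hydroxyacyl-CoA dehydrogenase (hacd) and a thiolase (kat) act in turn. Peroxisomes run a parallel route on very long chains with their own enzymes, in *C. elegans* the acyl-CoA oxidases (acox), the hydratase MAOC-1, the dehydrogenase DHS-28 and the thiolase DAF-22. That route also trims the side chains of ascarosides, the worm's pheromones, and most of this metabolism is placed in the intestine and epidermis. The compartments used here follow gene family and textbook roles, since protein sequences were not used here.

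**Figure D1:**
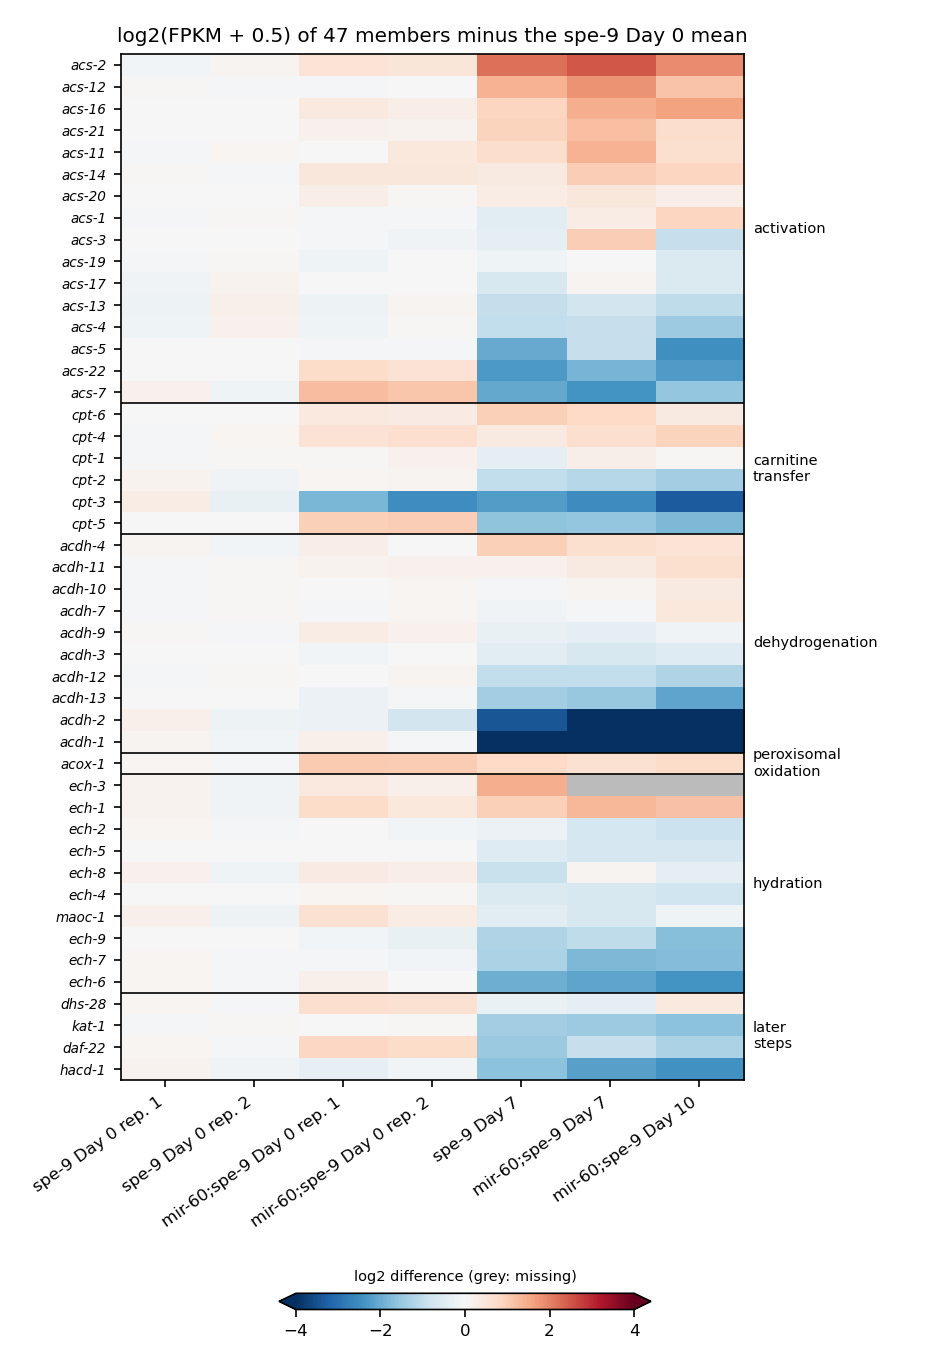
Each row is 1 of the 47 members, grouped by step and sorted within a step by the fitted later difference, and each column is 1 library. Colour gives log2(FPKM + 0.5) minus the mean of both *spe-9* Day 0 libraries, capped at 4 in either direction, and grey marks the 2 missing values of *ech-3*. The Day 0 columns are pale, with the strongest colours in the double mutant for *cpt-3*, *acs-7*, *acox-1* and *cpt-5*, while the 3 later columns are mostly blue below the activation step.

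The first comparison asked how the pathway stood after the stretch on paraquat, with Day 7 and Day 10 taken as 1 later stage and strain as a term (4 Day 0 against 3 later libraries). Of the 47 members, 35 passed at an adjusted p under 0.05, beside 60% of all genes tested. The fall outnumbered the rise: 25 members fell, against 28.3% of all genes, and 10 rose, against 31.7% of all genes. Among the members, 17 fell more than 2-fold (13.3% of all genes) and 4 rose more than 2-fold (18% of all genes). All later libraries lay below all Day 0 libraries for 22 members (30% of all genes) and above them for 8 (31.9% of all genes), *ech-3* among these by its 1 later value. The median difference over the members was -0.49 on the log2 scale, beside 0.022 over all genes tested. In whole animals, fewer cells of a type and less RNA per cell cannot be told apart.

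By list, 12 of 20 members of the mitochondrial steps fell and 3 rose, with a median of -0.78. Of the 6 members of the peroxisomal steps 4 fell and none rose, with a median of -0.66, and the other hydratases held 4 that fell and 1 that rose, with a median of -0.61. Among these falls, *ech-9*, *cpt-3* and *cpt-5* had a later mean under 1 FPKM. They reached the level to be tested through Day 0, so that requirement favoured a fall. By the symbol rule the peroxisomal list holds only 1 acyl-CoA oxidase gene, and those under sequence names, given below, are not in its median. The activation genes were divided, with 5 that fell and 6 that rose among 16 and a median of 0.074. Without the *spe-9* Day 7 library 27 members passed (6863 of all 13745 genes), and without the double mutant Day 7 library 39 did (8183 of all genes). An alternative added after the data were seen took that *spe-9* Day 7 library as the sole later one. The median was then -0.71 for the mitochondrial and -0.67 for the peroxisomal steps. Calls lost in that fit were those of *acdh-9* (-0.30), *acdh-11* (0.18), *acs-11* (0.71), *acs-13* (-0.95), *ech-1* (0.94), *ech-2* (-0.25) and *maoc-1* (-0.45). Those gained were *acox-1* (0.79), *acs-1* (-0.43), *acs-17* (-0.65), *cpt-1* (-0.39) and *cpt-6* (0.96).

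**Figure D2:**
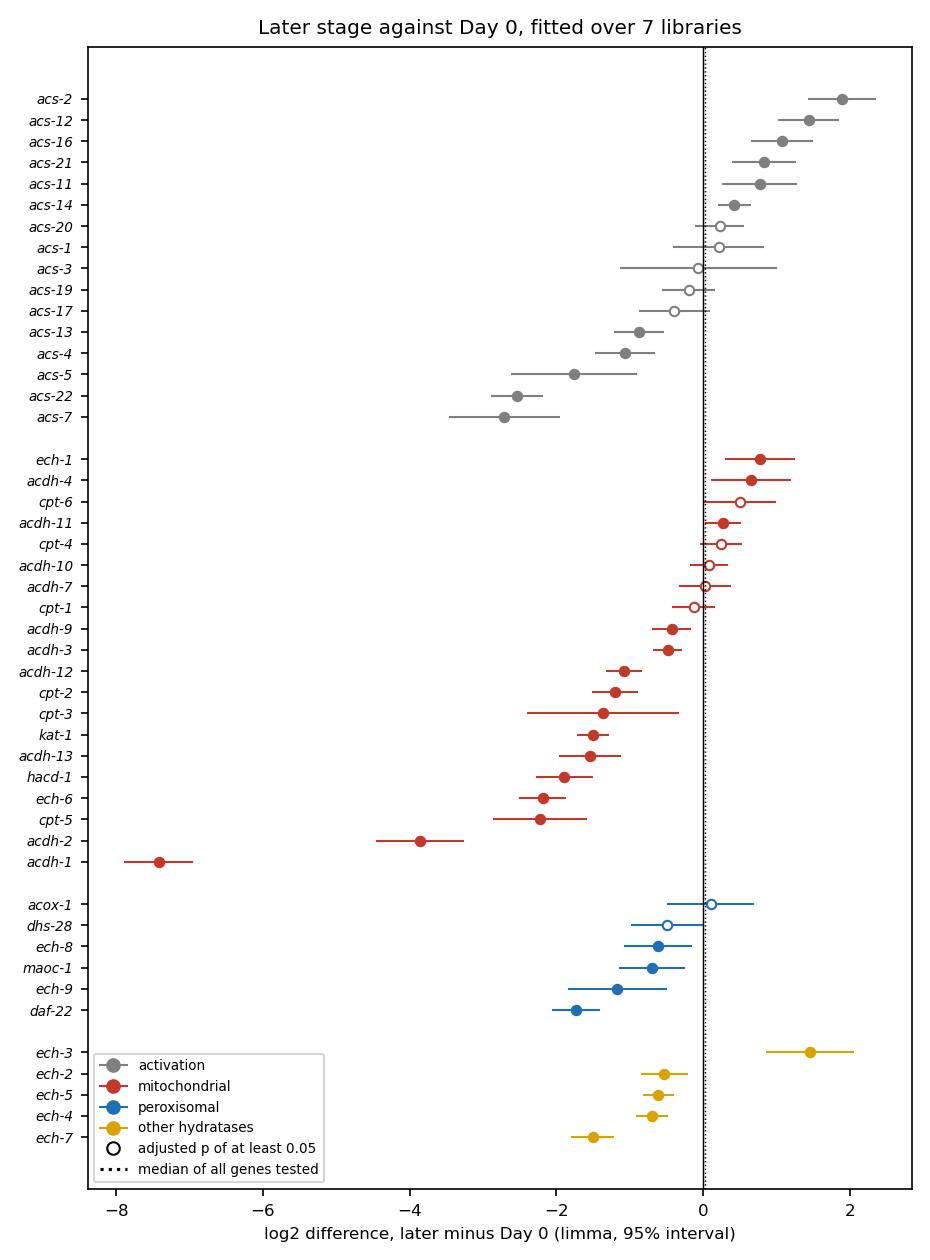
Points are the fitted log2 differences of the 47 members, later stage minus Day 0, over 7 libraries, with 95% intervals from limma. Filled points passed at an adjusted p under 0.05, and the dotted line is the median of all genes tested. The mitochondrial genes reach from 0.77 for *ech-1* down to -7.42 for *acdh-1*, whereas the peroxisomal ones found by symbol lie between 0.10 and -1.73. Acyl-CoA oxidase genes listed under sequence names are not drawn, and range from -0.039 (*acox-1.6*) to -3.34 (*acox-1.4*).

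Among the activation genes, *acs-2* rose most. This synthetase, known for its induction by fasting through the nuclear receptor NHR-49, lies at chromosome V, 15567389 to 15569666 (WS220, as are all positions here). *acs-2* measured 47.4 and 55.1 FPKM in *spe-9* and 74.6 and 71.2 FPKM in the double mutant at Day 0, then 239 FPKM in *spe-9* at Day 7 and 287 and 189 FPKM in the double mutant at Day 7 and Day 10. Each later library was above each Day 0 library, a mean of 239 ± 48.9 FPKM (SD, n = 3) over one of 62.1 ± 12.96 FPKM (SD, n = 4), or 3.84-fold (log2 difference 1.89, SE 0.19, adjusted p = 0.000332). Both SDs span the strains, and the later one the days as well, so they are not replicate spread.

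Further synthetases rose as well, *acs-12* and *acs-16* from lower levels. At Day 0, *acs-12* was read at 10.8 and 10.04 FPKM in *spe-9* and 10.1 and 10.6 FPKM in the double mutant, and later at 28.03 FPKM (*spe-9*, Day 7), 37.1 FPKM (double mutant, Day 7) and 23.8 FPKM (double mutant, Day 10). Its rise (log2 difference 1.44, SE 0.17, adjusted p = 0.000598) again separated the stages. For *acs-16*, Day 0 values were 1.62 and 1.64 FPKM in *spe-9* and 2.28 and 2.05 FPKM in the double mutant, and later values were 3.38 FPKM in *spe-9* and 5.33 and 6.04 FPKM in the double mutant at Day 7 and Day 10. This weakly expressed gene rose by 1.07 on the log2 scale (adjusted p = 0.00217), and both later double mutant libraries exceeded the *spe-9* one.

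In *spe-9*, *acs-21* stood at 2.35 and 2.33 FPKM at Day 0 and 4.72 FPKM at Day 7, and in the double mutant at 2.71 and 2.63 FPKM at Day 0, 6.02 FPKM at Day 7 and 4.17 FPKM at Day 10. The increase was 0.83 on the log2 scale (SE 0.18, adjusted p = 0.00703). Levels of *acs-11* were 59.2 and 65.7 FPKM (*spe-9*) and 61.9 and 82.98 FPKM (double mutant) at Day 0, 102 FPKM (*spe-9*) and 165 FPKM (double mutant) at Day 7 and 96.8 FPKM (double mutant) at Day 10. The Day 7 double mutant was the highest, and the difference of 0.77 (adjusted p = 0.017) lost its call without the *spe-9* Day 7 library (0.82) or without double mutant Day 0 replicate 1 (0.66). From 30.1 and 27.9 FPKM in *spe-9* and 40.04 and 39.7 FPKM in the double mutant at Day 0, *acs-14* went to 37.3 FPKM in *spe-9* at Day 7 and to 58.4 and 52.7 FPKM in the double mutant at Day 7 and Day 10. Here the stages overlapped between strains, since the *spe-9* Day 7 value lay below both double mutant Day 0 values, although the strain-adjusted rise passed (log2 difference 0.43, SE 0.087, adjusted p = 0.006).

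The largest falls of the activation step were those of *acs-7* and *acs-22*. ACS-7 activates the side chains of ascarosides. The libraries gave *acs-7* at 22.1 and 17.1 FPKM (*spe-9*, Day 0), 46.4 and 43.01 FPKM (double mutant, Day 0), 4.38 FPKM (*spe-9*, Day 7), 3.28 FPKM (double mutant, Day 7) and 6.27 FPKM (double mutant, Day 10). The later values were all lower, a mean 6.93-fold below Day 0 (log2 difference -2.71, SE 0.31, adjusted p = 0.000584). ACS-22 is related to the mammalian fatty acid transport proteins and acts with ACS-20 in the epidermal barrier. *acs-22* measured 82.9 and 85.7 FPKM in *spe-9* and 139 and 126 FPKM in the double mutant at Day 0, then 16.9 FPKM in *spe-9* at Day 7 and 22.9 and 17.2 FPKM in the double mutant at Day 7 and Day 10. It fell 5.70-fold (log2 difference -2.54, SE 0.14, adjusted p = 4.87e-05), and both of its transcripts, of 1965 and 285 bases, were lower in the later libraries. Its partner *acs-20* stayed between 5.18 and 7.28 FPKM in all 7 libraries, with a difference of 0.23 that did not pass (adjusted p = 0.186).

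At Day 0, *acs-5* was read at 44.02 and 45.04 FPKM in *spe-9* and 41.8 and 42.1 FPKM in the double mutant, and later at 10.7 FPKM (*spe-9*, Day 7), 23.4 FPKM (double mutant, Day 7) and 7.81 FPKM (double mutant, Day 10). The fall of 1.76 on the log2 scale (adjusted p = 0.00541) lost its call without the *spe-9* Day 7 library (-1.59), and the 3 later values were far apart. For *acs-4*, Day 0 values were 167 and 215 FPKM in *spe-9* and 169 and 195 FPKM in the double mutant, and later values were 96.2 FPKM in *spe-9* and 99.9 and 68.4 FPKM in the double mutant at Day 7 and Day 10. In *spe-9*, *acs-13* stood at 245 and 318 FPKM at Day 0 and 144 FPKM at Day 7, and in the double mutant at 245 and 299 FPKM at Day 0, 168 FPKM at Day 7 and 139 FPKM at Day 10. Both were lower in every later library (*acs-4* fell by 1.07 and *acs-13* by 0.87 on the log2 scale, adjusted p = 0.00193 and adjusted p = 0.00201). The decrease of *acs-13*, the activation gene of the highest mean level, was uneven over its 3 transcripts: that of 2181 bases went from a mean of 45.9 to 8.87 FPKM, and that of 2160 bases from 156.6 to 109.7 FPKM.

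Among members too low to be tested, *acs-10* was higher in every later library (mean 0.195 FPKM at Day 0 and 0.872 FPKM later). *acdh-6* was lower in every later library (mean 0.329 and 0.090 FPKM). No call was made for *acs-1*, *acs-3*, *acs-17*, *acs-19* and *acs-20*. The genes *acs-19* and *acs-17* were among the abundant ones, at 122 to 191 FPKM and 36.7 to 63.7 FPKM over all libraries. Without the double mutant Day 7 library, *acs-3*, *acs-17* and *acs-19* passed as lower (-0.59, -0.61 and -0.33). Both *acs-1*, which activates branched-chain fatty acids, and *acs-3* behaved differently between later libraries and are described with the strain comparison.

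At the carnitine step, the gene of the inner enzyme fell, and that of the outer one did not pass. Levels of *cpt-1* were 239 and 254 FPKM (*spe-9*) and 255 and 276 FPKM (double mutant) at Day 0, 188 FPKM (*spe-9*) and 292 FPKM (double mutant) at Day 7 and 257 FPKM (double mutant) at Day 10. *cpt-1*, the member of the highest mean level at this step, had a difference of -0.13 with a 95% interval of -0.41 to 0.15 (adjusted p = 0.375). From 295 and 245 FPKM in *spe-9* and 282 and 287 FPKM in the double mutant at Day 0, *cpt-2* went to 135 FPKM in *spe-9* at Day 7 and to 123 and 102 FPKM in the double mutant at Day 7 and Day 10. CPT-2, which returns the chain from carnitine to coenzyme A inside the mitochondrion, fell 2.31-fold (log2 difference -1.20, SE 0.12, adjusted p = 0.00038). Most of that FPKM sat on a transcript of only 330 bases (180.3 to 237 FPKM at Day 0), but the transcript of 1941 bases was also lower, at a mean of 33.4 FPKM later and 66.3 FPKM at Day 0.

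The remaining carnitine transferases were weaker. The libraries gave *cpt-5* at 3.86 and 3.73 FPKM (*spe-9*, Day 0), 7.78 and 7.93 FPKM (double mutant, Day 0), 0.914 FPKM (*spe-9*, Day 7), 0.957 FPKM (double mutant, Day 7) and 0.731 FPKM (double mutant, Day 10). All 3 later values were under 1 FPKM (log2 difference -2.23, SE 0.26, adjusted p = 0.000626), so *cpt-5* reached the level to be tested through Day 0. *cpt-3* measured 10.2 and 6.64 FPKM in *spe-9* and 1.98 and 1.08 FPKM in the double mutant at Day 0, then 1.34 FPKM in *spe-9* at Day 7 and 1.03 and 0.368 FPKM in the double mutant at Day 7 and Day 10. Its fall (log2 difference -1.37, SE 0.42, adjusted p = 0.03) rested on *spe-9*, where it was high at Day 0, and lost its call when any 1 of *spe-9* Day 0 replicate 1, *spe-9* Day 0 replicate 2, *spe-9* Day 7, double mutant Day 0 replicate 1 or double mutant Day 10 was left out (-0.78 to -1.37) and without a filter (-1.37). At Day 0, *cpt-6* was read at 15.6 and 15.2 FPKM in *spe-9* and 20.6 and 19.4 FPKM in the double mutant, and later at 30.5 FPKM (*spe-9*, Day 7), 26.9 FPKM (double mutant, Day 7) and 19.7 FPKM (double mutant, Day 10). The difference of *cpt-6* was 0.50 (adjusted p = 0.0631) and that of *cpt-4* was 0.24 (adjusted p = 0.109), and neither passed, though *cpt-6* did without the double mutant Day 10 library (0.69), under median centring (0.52), under quantile normalization (0.55) and with *spe-9* Day 7 as the sole later library (0.96).

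The dehydrogenation step held the largest change of the pathway. *acdh-1* (chromosome I, 6497455 to 6499466) encodes a short-chain dehydrogenase that starts the alternative breakdown of propionate in *C. elegans*. For *acdh-1*, Day 0 values were 725 and 627 FPKM in *spe-9* and 769 and 636 FPKM in the double mutant, and later values were 4.76 FPKM in *spe-9* and 2.43 and 3.38 FPKM in the double mutant at Day 7 and Day 10. Both strains dropped to a few FPKM, with no overlap of the stages and a mean of 689 ± 69.00 FPKM (SD, n = 4) at Day 0 and 3.52 ± 1.17 FPKM (SD, n = 3) later, a 196-fold fall (log2 difference -7.42, SE 0.19, adjusted p = 4.63e-06). The SDs again span strains and, later, days. At least 159 estimated reads remained in each later library.

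Next came *acdh-2*, on chromosome II. In *spe-9*, *acdh-2* stood at 88.2 and 67.8 FPKM at Day 0 and 6.74 FPKM at Day 7, and in the double mutant at 65.3 and 46.1 FPKM at Day 0, 2.08 FPKM at Day 7 and 3.29 FPKM at Day 10. It fell 16.6-fold (log2 difference -3.86, SE 0.24, adjusted p = 7.05e-05), and all 3 of its transcripts were lower later. Levels of *acdh-13* were 22.7 and 22.4 FPKM (*spe-9*) and 19.1 and 21.2 FPKM (double mutant) at Day 0, 8.33 FPKM (*spe-9*) and 7.63 FPKM (double mutant) at Day 7 and 4.89 FPKM (double mutant) at Day 10. The decrease was 3.07-fold (log2 difference -1.54, SE 0.17, adjusted p = 0.000497). From 97.6 and 105 FPKM in *spe-9* and 101 and 109 FPKM in the double mutant at Day 0, *acdh-12* went to 51.1 FPKM in *spe-9* at Day 7 and to 50.7 and 43.7 FPKM in the double mutant at Day 7 and Day 10. This relative of the very-long-chain dehydrogenase of mammals fell 2.13-fold (log2 difference -1.08, SE 0.10, adjusted p = 0.000222), evenly in the 3 later libraries.

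Smaller falls were found for *acdh-3* and *acdh-9*. The libraries gave *acdh-3* at 172 and 176 FPKM (*spe-9*, Day 0), 161 and 173 FPKM (double mutant, Day 0), 128 FPKM (*spe-9*, Day 7), 112 FPKM (double mutant, Day 7) and 122 FPKM (double mutant, Day 10). *acdh-9* measured 48.4 and 46.2 FPKM in *spe-9* and 57.8 and 53.2 FPKM in the double mutant at Day 0, then 38.2 FPKM in *spe-9* at Day 7 and 35.6 and 42.7 FPKM in the double mutant at Day 7 and Day 10. The decreases were 0.48 and 0.42 on the log2 scale (adjusted p = 0.00207 and adjusted p = 0.0126), and that of *acdh-9* lost its call without double mutant Day 0 replicate 1 (-0.37).

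In contrast, *acdh-7* and *acdh-10*, neighbours on chromosome X resembling medium-chain dehydrogenases, kept to a narrow range. Over all 7 libraries *acdh-7* ranged from 159 to 234 FPKM and *acdh-10* from 155 to 212 FPKM, with the double mutant Day 10 library highest for both. The differences were 0.026 (95% interval -0.32 to 0.37) and 0.08 (95% interval -0.17 to 0.33), and neither passed.

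*acdh-11* and *acdh-4* rose. ACDH-11 holds medium-chain acids and is known from the worm's adaptation to heat. At Day 0, *acdh-11* was read at 58.8 and 62.3 FPKM in *spe-9* and 66.97 and 68.98 FPKM in the double mutant, and later at 68.7 FPKM (*spe-9*, Day 7), 78.7 FPKM (double mutant, Day 7) and 93.9 FPKM (double mutant, Day 10). The rise was 0.27 on the log2 scale (adjusted p = 0.0455), and it lost its call when any 1 Day 0 library or the *spe-9* Day 7 library was left out (0.25 to 0.34), under median centring (0.29), under quantile normalization (0.27), without a variance trend (0.27) and with *spe-9* Day 7 as the sole later library (0.18). For *acdh-4*, Day 0 values were 1.40 and 1.11 FPKM in *spe-9* and 1.63 and 1.27 FPKM in the double mutant, and later values were 2.90 FPKM in *spe-9* and 2.24 and 2.08 FPKM in the double mutant at Day 7 and Day 10. This weak gene rose by 0.66 (adjusted p = 0.0409), which was lost without *spe-9* Day 0 replicate 1, *spe-9* Day 0 replicate 2, *spe-9* Day 7 or double mutant Day 0 replicate 2 (0.45 to 0.66) and under quantile normalization (0.42).

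At the hydration step, *ech-6* (chromosome III, 9751608 to 9752790) was the most abundant member. It encodes a short-chain hydratase used in propionate and branched-chain amino acid breakdown. In *spe-9*, *ech-6* stood at 522 and 466 FPKM at Day 0 and 127 FPKM at Day 7, and in the double mutant at 564 and 499 FPKM at Day 0, 115 FPKM at Day 7 and 93.9 FPKM at Day 10. The fall was 4.57-fold (log2 difference -2.19, SE 0.13, adjusted p = 5.52e-05) and no later value came near a Day 0 value. Levels of *ech-1* were 1.68 and 1.28 FPKM (*spe-9*) and 2.81 and 2.14 FPKM (double mutant) at Day 0, 3.28 FPKM (*spe-9*) and 4.42 FPKM (double mutant) at Day 7 and 3.97 FPKM (double mutant) at Day 10. ECH-1 resembles the alpha subunit of the mitochondrial trifunctional protein, and this weak gene rose by 0.77 on the log2 scale (adjusted p = 0.013), a call lost without the *spe-9* Day 7 library (0.66).

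Of the hydratases placed in neither list, 4 fell. From 66.5 and 59.02 FPKM in *spe-9* and 59.3 and 57.97 FPKM in the double mutant at Day 0, *ech-7* went to 25.9 FPKM in *spe-9* at Day 7 and to 17.7 and 18.6 FPKM in the double mutant at Day 7 and Day 10. *ech-7* fell most of them (log2 difference -1.50, SE 0.12, adjusted p = 0.00014). The libraries gave *ech-4* at 104 and 106 FPKM (*spe-9*, Day 0), 111 and 109.5 FPKM (double mutant, Day 0), 71.1 FPKM (*spe-9*, Day 7), 67.4 FPKM (double mutant, Day 7) and 60.8 FPKM (double mutant, Day 10). ECH-4, which joins an acyl-CoA binding domain to an isomerase domain, fell by 0.69 on the log2 scale (adjusted p = 8e-04). *ech-5* measured 48.6 and 48.6 FPKM in *spe-9* and 49.3 and 48.2 FPKM in the double mutant at Day 0, then 33.9 FPKM in *spe-9* at Day 7 and 30.2 and 30.4 FPKM in the double mutant at Day 7 and Day 10. At Day 0, *ech-2* was read at 41.6 and 37.95 FPKM in *spe-9* and 39.2 and 36.7 FPKM in the double mutant, and later at 33.3 FPKM (*spe-9*, Day 7), 24.2 FPKM (double mutant, Day 7) and 21.8 FPKM (double mutant, Day 10). The falls of *ech-5* and *ech-2* were 0.61 and 0.53 on the log2 scale (adjusted p = 0.00105 and adjusted p = 0.0116). With *spe-9* Day 7 as the sole later library *ech-2* lost its call (-0.25).

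The last of them, *ech-3*, read 14.96 and 12.2 FPKM in *spe-9* and 18.1 and 15.5 FPKM in the double mutant at Day 0 and 37.96 FPKM in *spe-9* at Day 7, while both later double mutant libraries list exactly 0. With those zeros as missing, the rise (log2 difference 1.46, SE 0.22, adjusted p = 0.00527) rests on 1 later library. With them kept as values the fitted difference turned to -2.48 and did not pass.

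Both genes of the final mitochondrial steps fell. For *hacd-1*, Day 0 values were 22.4 and 18.5 FPKM in *spe-9* and 15.9 and 18.7 FPKM in the double mutant, and later values were 6.23 FPKM in *spe-9* and 4.11 and 3.42 FPKM in the double mutant at Day 7 and Day 10. HACD-1, the hydroxyacyl-CoA dehydrogenase, fell 4.11-fold (log2 difference -1.89, SE 0.16, adjusted p = 0.000182). *kat-1* (chromosome II, 7073773 to 7075367) encodes the thiolase. In *spe-9*, *kat-1* stood at 201 and 218 FPKM at Day 0 and 78.7 FPKM at Day 7, and in the double mutant at 210.4 and 215 FPKM at Day 0, 76.8 FPKM at Day 7 and 67.2 FPKM at Day 10. Its values were tight within each stage, and the fall was 2.85-fold (log2 difference -1.50, SE 0.087, adjusted p = 5.33e-05).

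Of the peroxisomal genes, *acox-1*, an acyl-CoA oxidase that works on ascaroside side chains, did not pass (log2 difference 0.10, SE 0.24, adjusted p = 0.727) and is given with the strain comparisons. Levels of *maoc-1* were 92.6 and 70.1 FPKM (*spe-9*) and 124 and 99.1 FPKM (double mutant) at Day 0, 58.98 FPKM (*spe-9*) and 51.9 FPKM (double mutant) at Day 7 and 71.1 FPKM (double mutant) at Day 10. MAOC-1, the hydratase, fell by 0.70 on the log2 scale (adjusted p = 0.0159), with the double mutant Day 10 library above 1 *spe-9* Day 0 library, and lost its call without double mutant Day 0 replicate 1 (-0.57). From 90.4 and 82.1 FPKM in *spe-9* and 139 and 133 FPKM in the double mutant at Day 0, *dhs-28* went to 72.3 FPKM in *spe-9* at Day 7 and to 66.3 and 112 FPKM in the double mutant at Day 7 and Day 10. The difference of *dhs-28* was -0.49 (adjusted p = 0.0688) and did not pass, the Day 10 library lying above both *spe-9* Day 0 libraries. It did pass without the double mutant Day 7 library (-0.26) or without that of Day 10 (-0.64), and under quantile normalization (-0.55).

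The thiolase *daf-22* (chromosome II, 12423544 to 12425626) fell furthest of the 6. The libraries gave *daf-22* at 69.8 and 63.5 FPKM (*spe-9*, Day 0), 118 and 111 FPKM (double mutant, Day 0), 23.3 FPKM (*spe-9*, Day 7), 34.5 FPKM (double mutant, Day 7) and 27.5 FPKM (double mutant, Day 10). The fall was 3.19-fold (log2 difference -1.73, SE 0.13, adjusted p = 0.000129), with no overlap of the stages. *ech-9* measured 1.69 and 1.67 FPKM in *spe-9* and 1.53 and 1.29 FPKM in the double mutant at Day 0, then 0.458 FPKM in *spe-9* at Day 7 and 0.591 and 0.175 FPKM in the double mutant at Day 7 and Day 10. At Day 0, *ech-8* was read at 10.4 and 8.18 FPKM in *spe-9* and 11.6 and 11.2 FPKM in the double mutant, and later at 4.75 FPKM (*spe-9*, Day 7), 9.96 FPKM (double mutant, Day 7) and 6.87 FPKM (double mutant, Day 10). These neighbouring genes on chromosome IV for bifunctional hydratases fell by 1.17 and 0.62 on the log2 scale (adjusted p = 0.0107 and adjusted p = 0.0285). *ech-9* reached the level to be tested through its Day 0 mean of 1.55 FPKM, its later mean being 0.408 FPKM. For *ech-8* the call was lost when any 1 library other than double mutant Day 7 was left out (-0.43 to -0.67).

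Other genes now carrying these family names in RefSeq stand in the table under sequence names and so lay outside the rule. They were looked up after the values were seen, by transcript accession. Of 9 found, 7 were tested, and 6 fell and none rose (28.3% and 31.7% of all genes). The acyl-CoA oxidase genes *acox-1.3*, *acox-1.4*, *acox-1.5* and *acox-3* fell (log2 differences -2.55, -3.34, -2.70 and -2.34, adjusted p = 0.00029, adjusted p = 3.77e-05, adjusted p = 0.000456 and adjusted p = 0.000289). *acox-1* itself is named *acox-1.1* in RefSeq. Since *acox-1* to *acox-1.4* are neighbouring copies on chromosome I, the division of reads between them is uncertain. The trifunctional alpha subunit gene *ech-1.2* (T08B2.7) fell by 0.57 (adjusted p = 0.00615), from 212 to 244 FPKM at Day 0 to 133 to 177 FPKM later, while the much weaker *ech-1* rose.

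The deep fall of *acdh-1* and *ech-6* was shared by genes of the same side route. In *C. elegans* propionate is broken down through a vitamin B12-dependent route with the enzymes PCCA-1, PCCB-1, MCE-1 and MMCM-1. When vitamin B12 is lacking, a shunt that borrows beta-oxidation chemistry is used: ACDH-1, ECH-6, HACH-1, HPHD-1 and ALH-8. The nuclear receptors NHR-10 and NHR-68 are known to switch the shunt on. For *hach-1*, Day 0 values were 345 and 331 FPKM in *spe-9* and 389 and 372 FPKM in the double mutant, and later values were 61.1 FPKM in *spe-9* and 48.8 and 42.2 FPKM in the double mutant at Day 7 and Day 10. The hydrolase gene *hach-1* fell by 2.82 on the log2 scale (adjusted p = 3.32e-05). In *spe-9*, *hphd-1* stood at 314 and 314 FPKM at Day 0 and 26.5 FPKM at Day 7, and in the double mutant at 342 and 322 FPKM at Day 0, 19.3 FPKM at Day 7 and 17.4 FPKM at Day 10. The dehydrogenase gene *hphd-1* fell by 3.90 (adjusted p = 1.02e-05). The stages were fully apart for both, as for *acdh-1* and *ech-6*.

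The last enzyme of the shunt went the other way. Levels of *alh-8* were 614 and 607 FPKM (*spe-9*) and 642 and 602 FPKM (double mutant) at Day 0, 1133 FPKM (*spe-9*) and 891 FPKM (double mutant) at Day 7 and 2429.7 FPKM (double mutant) at Day 10. *alh-8* rose (log2 difference 1.10, SE 0.33, adjusted p = 0.0258) and was highest in the Day 10 library. From 107 and 77.1 FPKM in *spe-9* and 101 and 65.8 FPKM in the double mutant at Day 0, *nhr-68* went to 8.17 FPKM in *spe-9* at Day 7 and to 8.17 and 3.38 FPKM in the double mutant at Day 7 and Day 10. The regulator *nhr-68* fell by 3.65 on the log2 scale (adjusted p = 0.000222), and its partner *nhr-10* rose by 0.37 (adjusted p = 0.0231), from 24.9 to 27.7 FPKM at Day 0 to 31.6 to 38.4 FPKM later.

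Differences in the B12-dependent route were under 1 on the log2 scale. *pccb-1*, *mce-1*, *mmaa-1* and *pcca-1* fell (log2 differences -0.60, -0.60, -0.94 and -0.35), and *mmcm-1* had a difference of -0.15 that did not pass (adjusted p = 0.287). Over the 8 propionate genes listed beside the members, 6 fell and 1 rose (28.3% and 31.7% of all genes). Strain differences at Day 0 were small for all of them, from -0.14 to 0.19, and none passed.

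**Figure D3:**
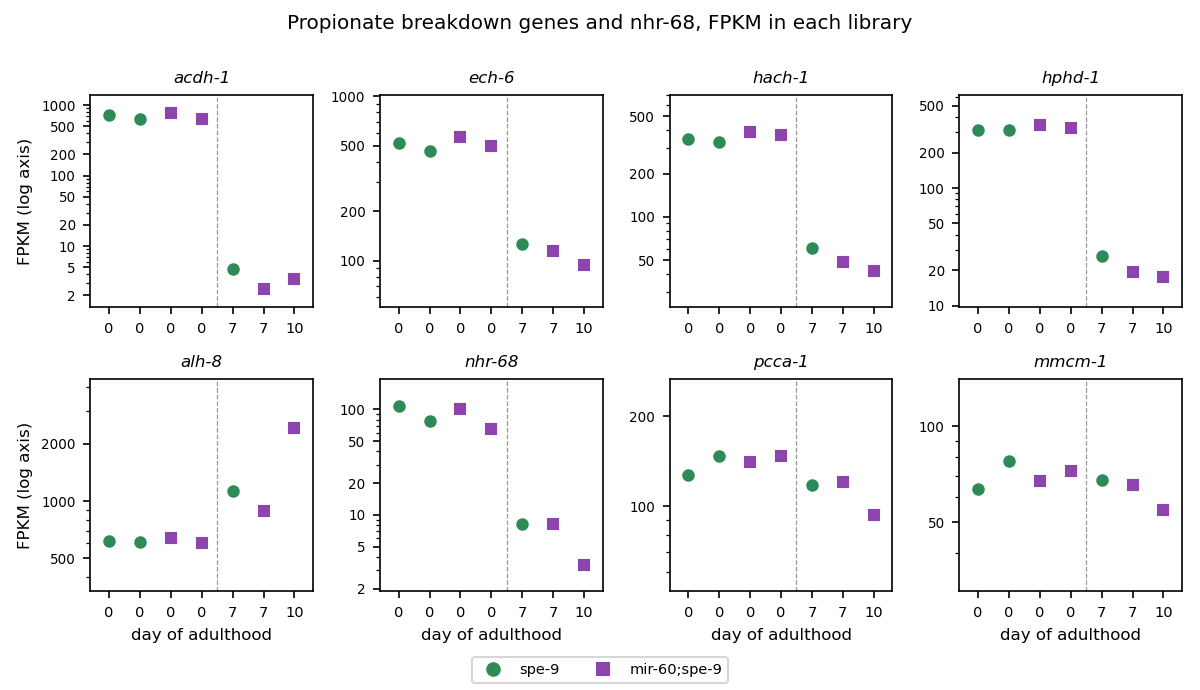
FPKM of 8 genes on log axes, 1 point per library, circles for *spe-9* and squares for *mir-60;spe-9*, with a dashed line between Day 0 and the later days. *acdh-1* drops from 627 FPKM or more to 4.76 FPKM or less, *ech-6*, *hach-1*, *hphd-1* and *nhr-68* drop in both strains, *alh-8* climbs to 2430 FPKM at Day 10, and *pcca-1* and *mmcm-1* shift little.

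Regulators and helper genes were read from lists chosen with earlier results of these data known. Of 8 regulators 5 fell and 1 rose, where 28.3% of all genes tested fell and 31.7% rose: beside *nhr-68*, the Mediator subunit gene *mdt-15* and the receptors *nhr-66*, *nhr-80* and *nhr-13* fell (log2 differences -0.96, -1.07, -1.06 and -0.65). *nhr-49*, the receptor that governs *acs-2*, was at 85.0 to 98.9 FPKM at Day 0 and 90.1 to 121 FPKM later, with a difference of 0.24 that did not pass (adjusted p = 0.136). All 4 electron transfer and carnitine carrier genes fell (log2 differences -0.36 to -0.81). Among 17 peroxisome genes 8 fell and 3 rose (all genes tested: 28.3% and 31.7%). The transporter gene *pmp-5* fell by 5.18 on the log2 scale and the assembly gene *prx-2* fell by 2.23, whereas *prx-5*, the import receptor for enzymes such as DAF-22, rose by 1.45 (adjusted p = 0.000319) and *prx-6* by 1.25 (adjusted p = 0.000962). *icl-1*, the bifunctional glyoxylate cycle gene, rose by 0.66 (adjusted p = 0.0188). At Day 0 no gene of these lists passed.

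Markers of some tissues moved with the stage as well, where 28.3% of all genes tested fell and 31.7% rose. All 5 intestine markers fell (log2 differences -0.64 to -3.34), and their summed level went from 275 to 325 FPKM at Day 0 to 79.0 to 99.5 FPKM later. All 4 body wall muscle markers fell (log2 differences -1.15 to -4.58), from a summed 409 to 559 FPKM to 27.1 to 54.5 FPKM. Of 6 germ line and oocyte markers 5 fell, with a summed level of 1297 to 1639 FPKM at Day 0 and 810 FPKM in *spe-9* at Day 7, *oma-2* having missing values in both later double mutant libraries, while 1 of 4 neuron markers rose and none fell and 1 of 5 sperm markers tested fell. Only 1 of 4 epidermis markers reached the level to be tested, *dpy-7*, which fell. It reached that level through Day 0 (mean 7.31 FPKM, and 0.049 FPKM later). *rol-6* and *bli-1* were at or near 0 and *dpy-13* at 1.08 FPKM or less. The part of these shifts in the falls of the pathway was not tested.

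The second comparison asked what loss of *mir-60* changed before treatment, in 2 libraries of each strain at Day 0. None of the 47 members passed in limma, where 0.364% of all genes did. At an unadjusted p under 0.05 there were 14 members (16.1% of all genes), 13 of them higher in the double mutant (5 activation, 5 mitochondrial and 3 peroxisomal) and 1 lower. Over all 13745 genes that split was also uneven, with 1446 higher and 773 lower. Both double mutant libraries lay above both *spe-9* libraries for 21 members (27.2% of all genes) and below them for 7 (23.6% of all genes). The median difference was 0.080 over the members and 0.0062 over all genes tested.

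By list, the 6 members of the peroxisomal steps had a median of 0.56, with 5 above 0, and the 20 of the mitochondrial steps a median of 0.069, with 15 above 0, as 7014 of all 13745 genes were. The activation genes had a median of 0.073 and the other hydratases one of 0.0025. These medians carry no test. Under median centring of each library, where the all-gene median was -0.10, the mitochondrial value turned to -0.042 and the peroxisomal one was 0.44.

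*acox-1* (chromosome I, 12938551 to 12942109) had the smallest adjusted p of the members. The libraries gave *acox-1* at 17.5 and 15.6 FPKM (*spe-9*, Day 0), 34.5 and 33.8 FPKM (double mutant, Day 0), 28.96 FPKM (*spe-9*, Day 7), 25.3 FPKM (double mutant, Day 7) and 27.9 FPKM (double mutant, Day 10). The double mutant mean of 34.1 ± 0.517 FPKM (SD, n = 2) was 2.06 times the *spe-9* mean of 16.6 ± 1.34 FPKM (SD, n = 2), with no overlap. The difference was 1.02 (95% interval 0.76 to 1.29, adjusted p = 0.105) and did not pass. With the level required over the Day 0 libraries alone 1 member passed, which was *acox-1*, and under median centring 2 did, *acox-1* and *daf-22*.

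The other enzymes of the route are given in the same way. *daf-22* had means of 66.6 ± 4.44 FPKM in *spe-9* and 115 ± 4.67 FPKM in the double mutant (SD, n = 2 each), a difference of 0.78 (95% interval 0.56 to 0.998, adjusted p = 0.115). *dhs-28* had means of 86.3 ± 5.92 FPKM and 136 ± 4.38 FPKM (SD, n = 2 each), a difference of 0.65 (95% interval 0.44 to 0.86, adjusted p = 0.127). For these 2 genes and *acox-1* the interval lay above 0, but no adjusted p passed. *maoc-1* spread more between replicates, with a difference of 0.46 (95% interval -0.19 to 1.11), *ech-8* had 0.29 and *ech-9* -0.19.

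For the mitochondrial enzymes of the same reactions the intervals included 0, except for *acdh-9* (0.23, 95% interval 0.024 to 0.43) and *acdh-11* (0.17, 95% interval 0.011 to 0.32), neither past the threshold. *kat-1* had a difference of 0.025 (95% interval -0.15 to 0.20), against 0.78 for the peroxisomal thiolase. *hacd-1* had -0.23 (95% interval -0.71 to 0.24) and *ech-6* 0.10 (95% interval -0.21 to 0.42). Among the dehydrogenases, *acdh-1* had 0.052, *acdh-7* 0.024 and *acdh-12* 0.058, and the widest was *acdh-2* at -0.49 (95% interval -1.28 to 0.29).

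**Figure D4:**
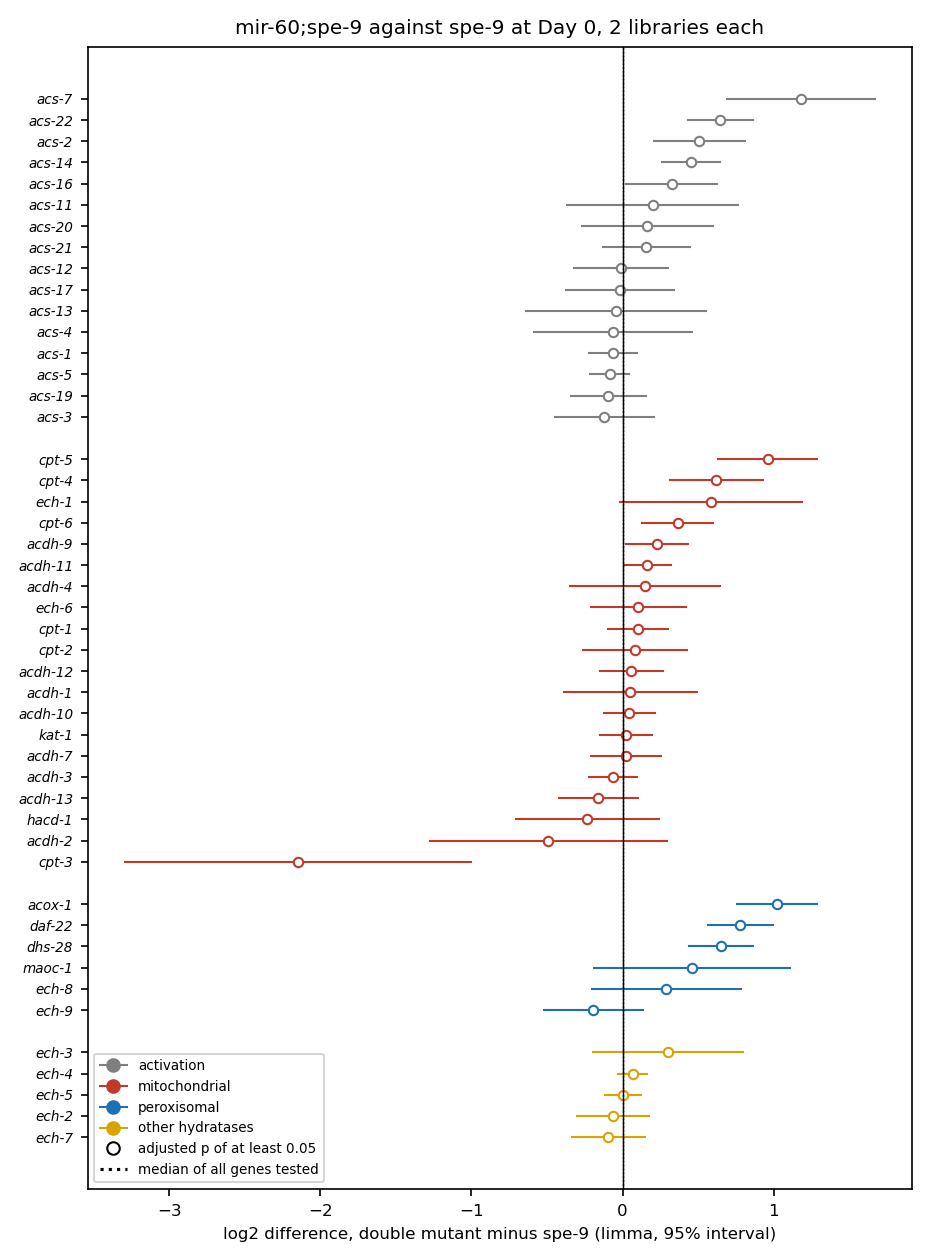
Points are the fitted log2 differences at Day 0, *mir-60;spe-9* minus *spe-9*, with 95% intervals from limma over 2 libraries each. All points are open because no member reached an adjusted p under 0.05. *acs-7*, *acox-1* and *cpt-5* lie furthest to the right, near 1, and *cpt-3* furthest to the left, at -2.15.

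Outside the peroxisomal list, the largest strain differences were in activation and carnitine transfer. *acs-7* was 2.28 times as high in the double mutant (difference 1.18, 95% interval 0.69 to 1.67, adjusted p = 0.172). *acs-22*, *acs-2* and *acs-14* had differences of 0.65, 0.51 and 0.45, with both double mutant libraries the higher. *cpt-5* had 0.96 (95% interval 0.63 to 1.29, adjusted p = 0.139), *cpt-4* 0.62 and *cpt-6* 0.36, while *cpt-1* and *cpt-2* had 0.10 and 0.08. *cpt-3* was the 1 member lower in the double mutant at an unadjusted p under 0.05, at 10.2 and 6.64 FPKM in *spe-9* and 1.98 and 1.08 FPKM in the double mutant (difference -2.15, adjusted p = 0.203). For reference, the hydration step ranged from 0.59 for *ech-1* to -0.19 for *ech-9*.

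Other peroxisome genes were read beside these. Of 17 assembly and transport genes 13 were above 0 (7014 of all 13745 genes were), with a median of 0.34 and none past the threshold. The peroxisomal catalase gene *ctl-2* was at 53.1 and 50.6 FPKM in *spe-9* and 92.99 and 86.9 FPKM in the double mutant (difference 0.79, adjusted p = 0.0923). The oxidase genes *acox-3*, *acox-1.6* and *acox-1.4* had 0.92, 0.78 and 0.56, and *acox-1.2* had -0.055. The 8 regulators lay between -0.16 and 0.27.

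Marker levels at Day 0 are set beside these values, and no marker passed. Intestine markers had a median difference of 0.41 (4 of 5 above 0, summed level 275 to 290.1 FPKM in *spe-9* and 303 to 325 FPKM in the double mutant) and body wall muscle markers one of 0.39 (4 of 4 above 0, 409 to 422 FPKM and 543 to 559 FPKM). Sperm markers had a median of 1.90 over the 5 tested (all above 0, 6.62 to 7.397 FPKM and 25.97 to 42.4 FPKM), and germ line and oocyte markers one of -0.14 (0 of 6 above 0). The sperm markers are near-identical gene copies, whose reads may be split between them. Neuron markers had a median of 0.12 (3 of 4 above 0), and the epidermis marker *dpy-7* a difference of 1.45. Their part in the differences above was not tested.

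**Figure D5:**
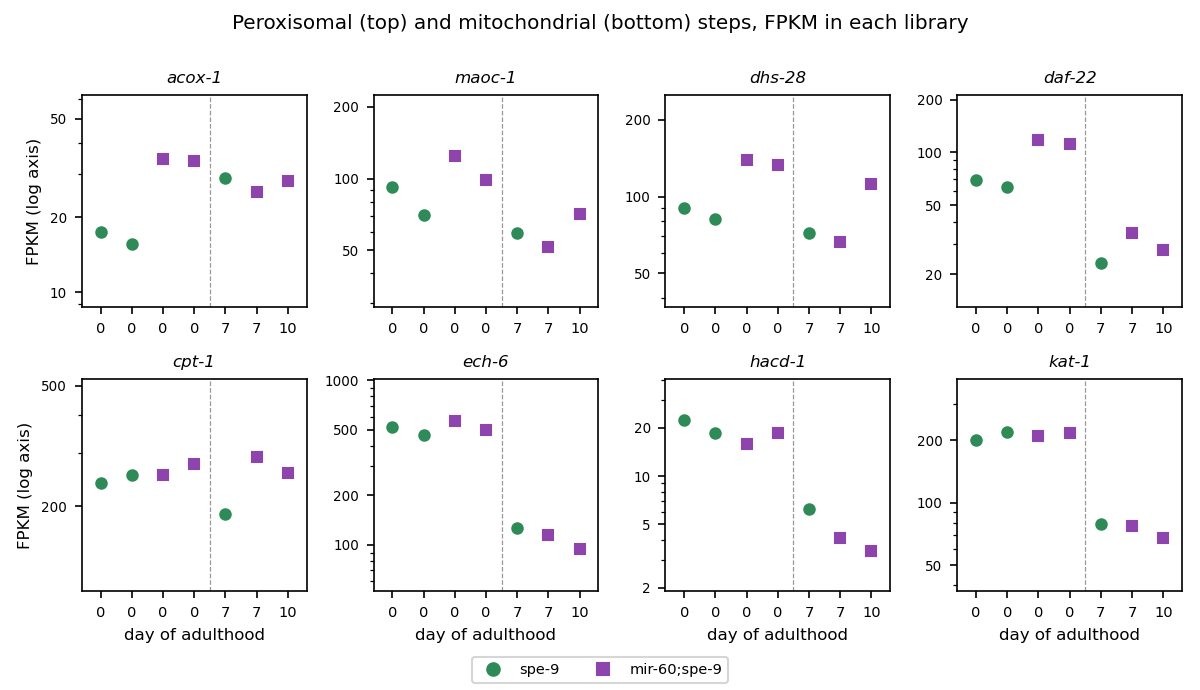
FPKM on log axes of 4 peroxisomal genes (top) and 4 mitochondrial genes (bottom), 1 point per library, circles for *spe-9* and squares for *mir-60;spe-9*, with a dashed line between Day 0 and the later days. At Day 0 the squares stand above the circles for all 4 peroxisomal genes and for *cpt-1*, and mix with them for *ech-6*, *hacd-1* and *kat-1*. After Day 0, *daf-22*, *ech-6*, *hacd-1* and *kat-1* are lower in every library, and *acox-1* is higher in *spe-9* alone.

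The third comparison asked whether the shift from Day 0 to the later stage differed between strains. Here *spe-9* has a single later library, assumed to vary like the others, and the fit gave a value for 46 members, *ech-3* having none. No member passed in limma (0.96% of all genes did). At an unadjusted p under 0.05 there were 5 members (6.56% of all genes), namely *acox-1*, *cpt-5*, *acs-1*, *cpt-6* and *cpt-1*. The median over the members was -0.17 and that over all genes -0.16, so a value near -0.16 is that of a typical gene.

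In this fit, which reuses the Day 0 libraries and so is no separate evidence, *acox-1* was again the member of the smallest adjusted p. In *spe-9* it was at 17.5 and 15.6 FPKM at Day 0 and 28.96 FPKM at Day 7, whereas the double mutant went from 34.5 and 33.8 FPKM to 25.3 and 27.9 FPKM. The strains that were apart at Day 0 thus lay within 25.3 to 29.0 FPKM later. The difference between the shifts was -1.14 (95% interval -1.64 to -0.65, adjusted p = 0.15). The other peroxisomal enzymes had -0.42 (*maoc-1*), -0.40 (*dhs-28*), -0.39 (*daf-22*), 0.45 (*ech-8*) and 0.034 (*ech-9*).

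*acs-1* pointed the other way. *acs-1* measured 35.2 and 36.8 FPKM in *spe-9* and 34.5 and 34.3 FPKM in the double mutant at Day 0, then 26.6 FPKM in *spe-9* at Day 7 and 44.2 and 65.9 FPKM in the double mutant at Day 7 and Day 10. It was lower later in *spe-9* and higher in the double mutant, most at Day 10 (difference between the shifts 1.07, 95% interval 0.23 to 1.91, adjusted p = 0.582). Without the double mutant Day 7 library, which leaves 1 later library of each strain, the difference of *acs-1* was 1.36. Without double mutant Day 10, which does the same, that of *acs-5* was 1.17. Of the 3 transcripts of *acs-1*, that of 1784 bases was at 36.5 FPKM in the Day 10 library and 3.74 to 10.2 FPKM at Day 0. *cpt-5*, *cpt-6* and *cpt-1* had differences between the shifts of -1.04, -0.76 and 0.44. With the listed zeros kept as values, 1 member passed (205 of all 13745 genes did), which was *ech-3*.

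At Day 7 each strain has 1 library, so the strains can be set side by side without a test. There 2 members were over 2-fold higher in the double mutant (4.02% of all genes) and 1 was over 2-fold lower (4% of all genes). At Day 0, *acs-3* was read at 7.10 and 7.04 FPKM in *spe-9* and 6.63 and 6.30 FPKM in the double mutant, and later at 5.35 FPKM (*spe-9*, Day 7), 14.3 FPKM (double mutant, Day 7) and 3.46 FPKM (double mutant, Day 10). *acs-3* acts in the worm's control of fat uptake, and its Day 7 double mutant value was the highest of the 7 libraries (log2 ratio 1.34). *acs-5* was at 23.4 FPKM against 10.7 FPKM (log2 ratio 1.09). *acdh-2* was the lower one, at 2.08 FPKM against 6.74 FPKM (log2 ratio -1.49).

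Between Day 7 and Day 10 of the double mutant, again 1 library each, no member was over 2-fold higher (3.44% of all genes) and 2 were over 2-fold lower (5.33% of all genes). These were *acs-3* and *acs-5*, with log2 ratios of -1.91 and -1.52, which brought both to the lowest of the 7 libraries. *dhs-28* had a ratio of 0.75 and *maoc-1* one of 0.45, while *daf-22* had -0.33. *kat-1*, *hacd-1* and *ech-6* had -0.19, -0.24 and -0.29.

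Relative to its own Day 0 mean, the median over the mitochondrial list was -0.71 in *spe-9* at Day 7, and -0.60 and -0.82 in the double mutant at Day 7 and Day 10. The peroxisomal list had -0.67, -0.92 and -0.66 in the same order. The summed level of the mitochondrial list was 2700 to 2953 FPKM at Day 0 and 1208 to 1331 FPKM later, and that of the peroxisomal list 241 to 282 FPKM in *spe-9* at Day 0, 389 to 429 FPKM in the double mutant at Day 0 and 189 to 246 FPKM later. The mitochondrial sums are weighted to abundant members of the propionate shunt. Of these, *acdh-1* had a mean of 689 FPKM at Day 0 and 3.52 FPKM later, and *ech-6* 513 and 112 FPKM.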

How the data were processed

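Polyadenylated RNA of whole animals was sequenced in 7 libraries, prepared with a stranded kit. Per the labels and the study's methods, the authors mapped single-end reads with TopHat 2.1.0 (aligner Bowtie2 2.1.0) on the WS220 genome and obtained FPKM per RefSeq transcript from Cufflinks 2.2.1, after merging the 2 runs of each library, so the deposited FPKM are scaled for length and library size. How reads shared by near-identical copies were divided was not given in the sources used here.

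FPKM were summed per gene. Genes averaging 1 FPKM or more across the 7 libraries were analysed as log2(FPKM + 0.5) with limma 3.58.1 in R 4.3.3 (lmFit, eBayes with a variance trend, two-sided, Benjamini-Hochberg, threshold 0.05): Day 0 strain (4 libraries), later stage with strain as a term (7 libraries), and strain by stage (7 libraries). A listed 0 in *mir-60;spe-9* at Day 7 or Day 10 was taken as missing where the others were at least 10 FPKM. The log scale understates changes of low genes. Depth was estimated from transcripts over 600 bases with FPKM under 0.3, counting from length less 199 bases, of which 94.0% to 95.4% came within 0.1 of whole reads; precision from depth covers counting error only.

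The members, lists and tests were chosen with earlier results of these data known. Every member may be named, with values per library for those that passed, the highest of each step, the largest rise and fall of each step and 12 named enzymes. The study describes RNA of both strains as isolated in 2 independent rounds, and libraries of the same replicate number deviated together with a correlation of 0.084 over genes, so the numbers were not used as pairs. The fits were tested on simulated data in which 200 genes were changed. Every library had the spread of the Day 0 replicates, averaged over genes of like level. Of changes of 1 on the log2 scale, 35% were recovered at Day 0, 61.5% for the later stage and 12% for strain by stage. Of changes of 2, 79%, 96.5% and 65.5% were recovered in the same order. Differences between later conditions, and differences in spread between genes of like level, were not simulated. The shares recovered in the real data may therefore differ. Alternatives changed the pseudocount, filter, scaling, transcript, variance trend, zeros and libraries.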

Additional observations from a re-analysis of the deposited data

How the results depend on the processing

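At Day 0 the count of members past the threshold was 0 as reported and under every alternative but 2: it was 2 under median centring and 1 with the filter over the Day 0 libraries. It was 0 with each Day 0 library left out and 0 under the replicate block, that is with replicate number as a term, where 0 of all 13745 genes passed against 50 without it. Over all genes that count of 50 was 126 under median centring, 97 with the filter over the Day 0 libraries, 84 without a filter and 76 to 127 with 1 library left out, with 5 of 76 higher without *spe-9* Day 0 replicate 1 and 123 of 127 without *mir-60;spe-9* Day 0 replicate 1. The later count of 35 ranged from 27 to 39 with 1 library left out and from 27 to 36 under the other alternatives. The 27 of the other alternatives came with a mean FPKM of at least 10, where only 37 members were tested. Over all genes the later count was 8246, and 6732 to 8581 with 1 library left out. It was 5636 with a mean FPKM of at least 10, which tests fewer genes, and 9525 without a filter, which tests more. The strain-by-stage count of 0 became 1 with the zeros kept as values, and ranged from 0 to 1 with 1 library left out. Over all genes it was 132, and 263 without a filter, 11 with a mean FPKM of at least 10, 205 with the zeros kept and 125 to 283 with 1 library left out. Without the *spe-9* Day 7 library it could not be fitted.

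The Day 0 median of the mitochondrial steps (0.069) turned to -0.042 under median centring and ranged from 0.056 to 0.091 with 1 library left out. That of the peroxisomal steps (0.56) was 0.72 with a mean FPKM of at least 10, which leaves 4 members, and ranged from 0.42 to 0.69 with 1 library left out. The later median of the mitochondrial steps (-0.78) was -0.48 without a filter, which adds 3 members, -0.71 with *spe-9* Day 7 as the sole later library, and ranged from -0.80 to -0.64 with 1 library left out. That of the peroxisomal steps (-0.66) ranged from -0.76 to -0.59 with 1 library left out. Of 63 results for single members, 22 crossed the threshold under some alternative and 6 changed sign. The later difference of *ech-3* was -2.48 with the zeros kept as values, and that of *acs-1* was -0.25 from its highest transcript and -0.43 with *spe-9* Day 7 as the sole later library. With 1 library left out, the later differences ranged from -0.35 to 0.25 for *acox-1*, from -0.036 to 0.64 for *acs-1*, from -0.59 to 0.36 for *acs-3* and from -0.22 to 0.047 for *cpt-1*, and the strain-by-stage difference of *acs-5* from -0.35 to 1.17. Sorting compartments by the last 3 residues of the proteins was not run, since protein sequences were not used here.

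With 2 libraries against 2 at Day 0, no exact permutation test of a single gene can go below p = 0.333. Each later day of a strain has 1 library. Members under 2 FPKM rest on few reads.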
